A study of Arabidopsis thaliana with 28 samples.

Results

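The chloroplast and mitochondrial probe sets of the array were taken to be 150 of the 22746 tested probe sets. Their ID numbers lie from 244901 to 245050, the block assigned here to transcripts of both organelle genomes. They were chosen by ID number alone, with any suffix, and all 150 were kept and tested. No table used here pairs a probe set with a gene, so each is given by its ID, the chloroplast and mitochondrial members could not be told apart, and no sequence is shown. Whether each of the 150 detects an organelle transcript could not be checked, and some may detect nuclear genes. An organelle probe set below means any member of this ID range. For the same reason the shoot label could not be checked against marker genes, nor the mutants and overexpression lines against the levels of BAM7 and BAM8.

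Transcripts were measured in shoots of Arabidopsis thaliana Col-0 plants aged 3 weeks, grown without treatment at 20 °C in a light period of 12 h and harvested 4 h after its onset. The 28 arrays formed 14 groups of 2 biological replicates, each a pool of 14 plants. The groups were wildtype, the mutants bam7, bam8 and bam7 bam8, the overexpression lines BAM7_Ox and BAM8_Ox, and BAM7-DNA_Ox, BAM7-Cat_Ox, BAM7-Lig_Ox, BAM7-N_Ox, BAM8-DNA_Ox, BAM8-Cat_Ox, BAM8-Lig_Ox and BAM8-N_Ox. The labels do not define the suffixes, name a promoter for the overexpressed genes, say whether they were put into wildtype or mutant plants, or tell how many independent transgenic lines a group represents. BAM7 and BAM8 are transcription factors of the nucleus whose second domain resembles a starch-degrading beta-amylase, and the series asks what that domain contributes.

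Chloroplasts and mitochondria keep small genomes of their own, which code for core subunits of the photosynthetic and respiratory complexes and for parts of the organelle ribosomes, while most of their proteins are coded in the nucleus. Chloroplast genes are transcribed by a bacterial-type RNA polymerase whose core is coded in the plastid and by a phage-type polymerase imported from the cytosol, and mitochondrial genes by phage-type enzymes alone. Organelle transcripts carry no long stable poly(A) tail, and in both organelles short tails mark RNA for decay. The labelling kit named in the labels primes from poly(A), so that a level here reflects the RNA that such priming reaches. Part of the mitochondrial genome of this accession is also copied into nuclear chromosome 2, and which probe sets can also detect that copy was not tested. In a whole shoot, fewer organelles, less RNA per organelle and another mix of cells cannot be told apart.

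The 150 probe sets spanned mean levels from 3.67 to 13500 intensity units, the deposited unit. Of these, 110 lay above 9.94 units, the level that separated off the lowest values among all probe sets, and are called bright below; the other 40 are called dim. On every array 15 of the 150 lay under the array's own 25th percentile, and 109 did so on no array. A low level of this kind may be background, since detection calls are not used here. The brightness followed the ID number. From 244961 to 244990 and from 244991 to 245020 no probe set was dim, with medians of 1200 and 723 units. From 244901 to 244930, 19 of 30 were dim, with a median of 7.45 units. Between 244931 and 244960, 13 of 30 were dim, and from 245021 to 245050, 8 of 30. The suffix _S_AT, which marks a probe set that can match more than 1 transcript, was carried by 21 of the 150, with 8 of these from 244901 to 244930 and none from 245021 to 245050.

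**Figure D1:**
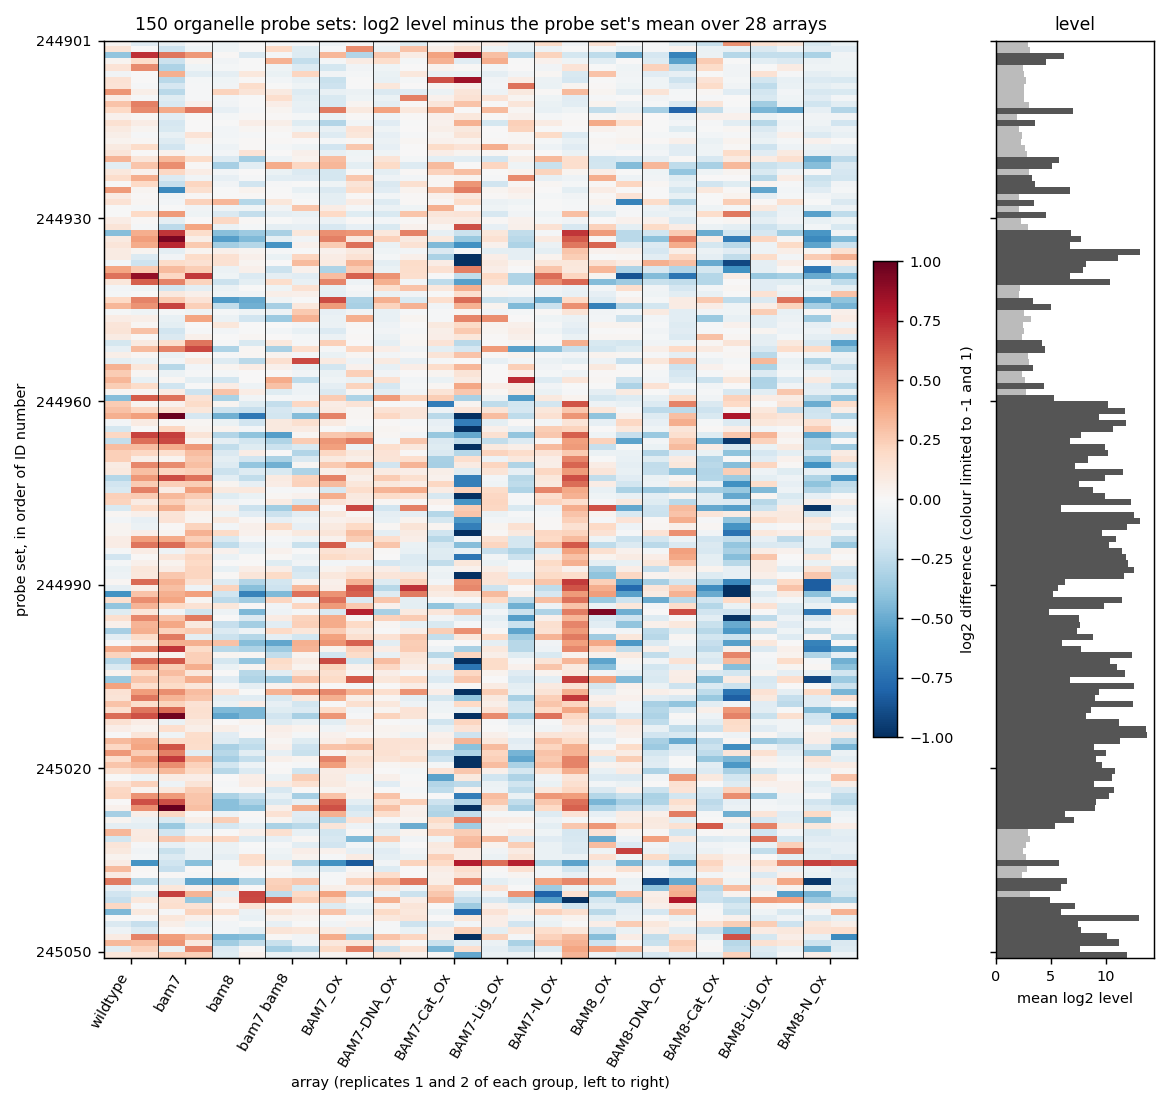
Each row is 1 of the 150 organelle probe sets in order of ID number and each column 1 of the 28 arrays, with colour giving the log2 level minus that probe set's mean and the bars at the right its mean log2 level (dark for bright, light for dim). Replicate 2 of BAM7-Cat_Ox carries a run of low values among bright probe sets, and 12 of them lie more than 2-fold below replicate 1.

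The organelle probe sets varied more between replicate pools than other probe sets did. Their median residual SD was 0.183 on the log2 scale, against 0.143 for the 22596 others. Among the brightest probe sets of the array it was 0.209 for the 89 organelle members and 0.135 for the others, and without BAM7-Cat_Ox 0.18 and 0.126. For dim probe sets the values were 0.105 and 0.104. These are descriptions of 28 arrays and were not tested. The median standard error of a difference between 2 groups was 0.172 for the organelle members and 0.139 for all probe sets.

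Bright members tended to move together from array to array. A bright member's levels over the 28 arrays had a median Pearson r of 0.518 with the median of the other bright members, over 0.5 in 58 of 110 and below 0 in 8. Over the 14 differences between replicates the median r was 0.322. All points share their arrays, so these values are given without a test. The member with the lowest r was 245035_AT, at -0.62, and 245045_AT followed at -0.36. Organelle probe sets together held 3.96% to 4.98% of the summed intensity of an array, a sum of probe signals and not of molecules. It was 4.63% and 4.77% in wildtype, 4.74% and 4.71% in bam7, 4.16% on both bam8 arrays, and 4.21% and 4.25% in bam7 bam8. The 10 arrays of BAM8 overexpression lay between 3.96% and 4.32%, and the 10 arrays of BAM7 overexpression between 3.96% and 4.98%. All BAM8 arrays lay below both wildtype arrays, and so did the BAM7 arrays except BAM7-N_Ox replicate 2, at 4.98%.

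Across all 14 groups, 11 of the 150 organelle probe sets differed by the F test of limma at an adjusted p under 0.05, which is 7.33%. The background was close to this, with 6.15% of all probe sets called. At an unadjusted p under 0.05 the shares were 36% of the organelle members and 20.9% of all probe sets. The 11 were 244907_AT, 245035_AT, 245015_AT, 244912_AT, 245010_AT, 244939_AT, 245020_AT, 245009_AT, 245016_AT, 244940_AT and 244920_S_AT. Just inside the threshold stood 244920_S_AT at an adjusted p of 0.0458 and just outside it 244996_AT at 0.0542, both by limma. The count was 34 without BAM7-Cat_Ox replicate 1, 18 without BAM8-Cat_Ox replicate 1 and 7 without BAM7-N_Ox replicate 2.

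The range of the 14 group means was narrowest in 244917_AT, at 0.08 on the log2 scale. It was widest in 245007_AT, at 2.01, and there it rests on BAM7-Cat_Ox replicate 2. That array read 6.08, and the other 27 lay between 8.61 and 9.82.

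**Figure D2:**
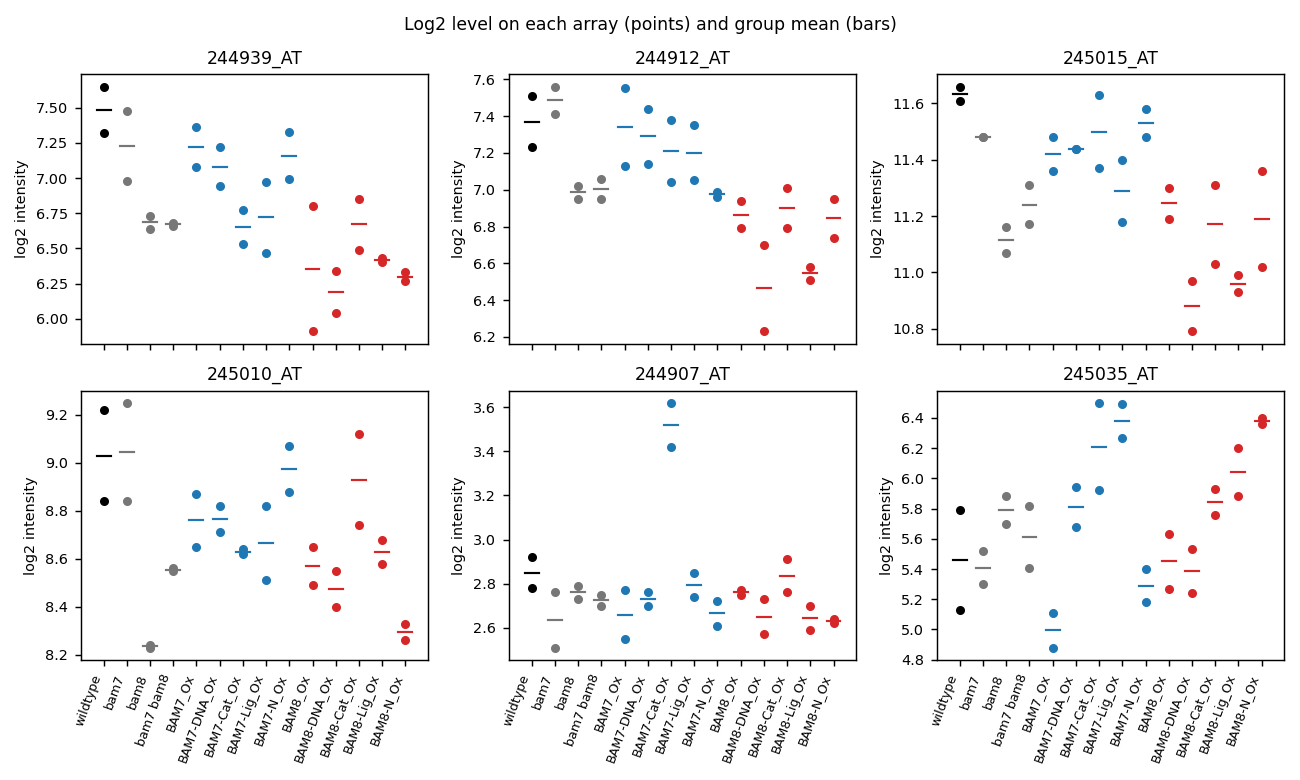
Points are the log2 intensity of 6 organelle probe sets on each array and bars the group means, with wildtype in black, the mutants in grey, BAM7 lines in blue and BAM8 lines in red. The 6 have the lowest F test p, and the panels are sorted from the lowest mean difference of BAM8 from BAM7 lines to the highest. Because of this sorting, the first 3 panels show BAM8 lines mostly below BAM7 lines. Probe set 245035_AT has its highest group means in BAM7-Lig_Ox and BAM8-N_Ox, and 244907_AT stands apart in BAM7-Cat_Ox alone.

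Among the 11, 245015_AT, 244912_AT and 244939_AT had a like order over the groups, high in wildtype, bam7 and most BAM7 lines and lower in bam8, bam7 bam8 and the BAM8 lines. The log2 level of 245015_AT was 11.61 and 11.66 in wildtype and 11.48 on both bam7 arrays. It was 11.16 and 11.07 in bam8 and 11.31 and 11.17 in bam7 bam8. In the BAM7 lines it ran from 11.18 to 11.63 with a median of 11.44, and in the BAM8 lines from 10.79 to 11.36 with a median of 11.03. The 2 ranges of lines overlapped between 11.18 and 11.36, and no bam8, bam7 bam8 or BAM8 array reached the lower bam7 value. For 244912_AT the wildtype arrays read 7.23 and 7.51, those of bam8 6.95 and 7.02, and those of bam7 bam8 7.06 and 6.95. Its BAM7 lines lay between 6.96 and 7.55 and its BAM8 lines between 6.23 and 7.01. The overlap came from BAM7-N_Ox, at 6.96 and 6.99, and BAM8-Cat_Ox, whose replicate 2 read 7.01. The levels of 244939_AT were 7.32 and 7.65 in wildtype, 6.73 and 6.64 in bam8, and 6.68 and 6.66 in bam7 bam8. In the BAM7 lines 244939_AT ranged from 6.47 to 7.36 and in the BAM8 lines from 5.91 to 6.85. Both BAM7-Cat_Ox arrays, at 6.77 and 6.53, and BAM7-Lig_Ox replicate 2, at 6.47, lay within the range of the BAM8 lines, while BAM7-Lig_Ox replicate 1, at 6.97, lay above it.

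Loss of BAM7, of BAM8 or of both moved no organelle probe set past the threshold. In bam8, 0 of 150 were called by limma, while 35 had an unadjusted p under 0.05, all of them lower than wildtype. That is 23.3% of the members, against 6.4% of all probe sets at the same level, and 0.0044% of all probe sets were called. The lowest p among the members in bam8 was that of 245010_AT. It read 8.24 and 8.23 in bam8, against 8.84 and 9.22 in wildtype, a difference of -0.80 (SE 0.153, limma adjusted p 0.183). For 245015_AT the difference was -0.52 (SE 0.122, adjusted p 0.315 by limma). The median member of bam8 was 0.15 lower than wildtype on the log2 scale, within -0.19 to -0.12 over the 4 array pairs, while the median of all probe sets was -0.04. Every array of bam8 lay below both wildtype arrays in 78 of 150 members, or 52%, against 28.2% of all probe sets. That background ran from 12.1% to 41.2% over the 13 groups and was not matched for level.

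The double mutant bam7 bam8 also had 0 called members by limma, while 25 had an unadjusted p under 0.05 (23 lower, 2 higher), which is 16.7% against 9.65% of all probe sets, and 0.18% of all probe sets were called. Its median member differed by -0.10, over array pairs from -0.17 to -0.10. In bam7, 0 members were called and 13 had an unadjusted p under 0.05 by limma, which is 8.67% against 13.9% of all probe sets at that level. The share of all probe sets called in bam7 was 0.0572%. Without bam7 replicate 2 or wildtype replicate 2, 1 member was called. Its median member was 0.02 above wildtype, over array pairs from -0.02 to 0.07. The interaction of both mutations was called for 0 members by limma, while 7 had an unadjusted p under 0.05 (4.67%, against 8.16% of all probe sets), and 0.0484% of all probe sets were called.

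**Figure D3:**
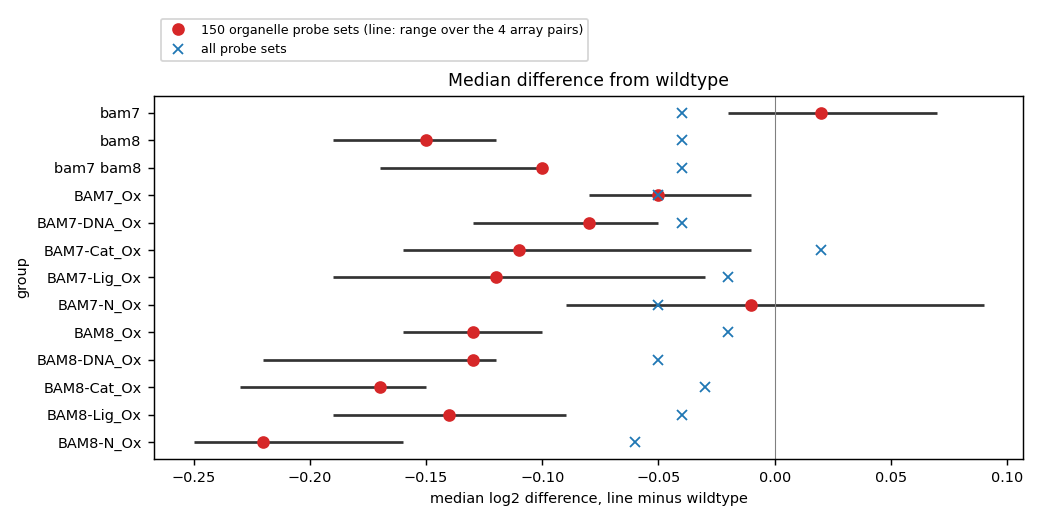
Red points give the median log2 difference from wildtype over the 150 organelle probe sets in each of 13 groups, black lines the lowest and highest median over the 4 pairs of arrays, and blue crosses the median over all 22746 probe sets. The 5 BAM8 lines and bam8 sit between -0.22 and -0.13, and bam7, BAM7_Ox and BAM7-N_Ox between -0.05 and 0.02. In the gap lie BAM7-Lig_Ox at -0.12, BAM7-Cat_Ox at -0.11, bam7 bam8 at -0.10 and BAM7-DNA_Ox at -0.08. The array pairs of BAM7-Lig_Ox, from -0.19 to -0.03, overlap those of the BAM8 lines.

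The 13 comparisons with wildtype share its 2 arrays, so their values are given side by side. Among the overexpression lines the median member was lowest in BAM8-N_Ox at -0.22, followed by BAM8-Cat_Ox at -0.17, BAM8-Lig_Ox at -0.14, and BAM8-DNA_Ox and BAM8_Ox at -0.13. The BAM7 lines gave -0.12 for BAM7-Lig_Ox, -0.11 for BAM7-Cat_Ox, -0.08 for BAM7-DNA_Ox, -0.05 for BAM7_Ox and -0.01 for BAM7-N_Ox. Neighbours in this order were not separated, since their array pairs overlapped. All arrays lay below both wildtype arrays in 74 members of BAM8-DNA_Ox (37.2% of all probe sets), 73 of BAM8-Cat_Ox (24.1%), 73 of BAM8-Lig_Ox (35%) and 60 of BAM8_Ox (19.5%), which are 49.3%, 48.7%, 48.7% and 40% of the 150. They did so in 61 members of BAM7-DNA_Ox (33.4% of all probe sets), 45 of BAM7-Cat_Ox (12.1%), 44 of BAM7-Lig_Ox (15.3%), 38 of BAM7_Ox (33.9%) and 37 of BAM7-N_Ox (39%), which are 40.7%, 30%, 29.3%, 25.3% and 24.7%. The corresponding counts were 68 in bam7 bam8 (45.3%, against 34.2%) and 30 in bam7 (20%, against 31.5%). The share of members was thus above the background in bam8, bam7 bam8, all BAM8 lines, BAM7-DNA_Ox, BAM7-Cat_Ox and BAM7-Lig_Ox. It was below the background in bam7, BAM7_Ox and BAM7-N_Ox. The ratio of both shares was widest in BAM7-Cat_Ox, where the background was lowest. This background was not matched for level, while 89 of the 150 members were among the brightest probe sets of the array. The 25th percentiles of the arrays were 8.2 and 7.6 units in wildtype and 7.84 and 8.37 in BAM7-Cat_Ox. They were 7.39 and 7.19 in BAM7-N_Ox, where the background was 39%. Their part in placing a group above or below the background was not tested. The bright members gave wider values, -0.29 in BAM8-N_Ox and 0.05 in BAM7-N_Ox, and the dim ones stayed between -0.13 and 0.05 over the 13 groups. The median of all probe sets lay between -0.06 and 0.02. For all probe sets above 9.94 units it was 0.05 in BAM8-N_Ox and 0.03 in BAM7-N_Ox, so the bright members of BAM7-N_Ox were near it.

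BAM8-N_Ox had the most called organelle probe sets against wildtype, 1 higher and 6 lower of 150, while 3.72% of all probe sets were called. The members' share was near this background, and BAM8-N_Ox also had the most calls over all probe sets, 847. The lower ones were 244939_AT, 245000_AT, 245010_AT, 244920_S_AT, 244911_AT and 245006_AT, and the higher one was 245035_AT. For 244939_AT the BAM8-N_Ox arrays read 6.27 and 6.33 and those of wildtype 7.32 and 7.65, a fall of 2.27-fold (log2 difference -1.18, SE 0.242, limma adjusted p 0.0106). Levels of 245000_AT were 7.03 and 7.19, against 8.10 and 8.19 in wildtype (-1.04, SE 0.23, limma adjusted p 0.0162). Levels of 245010_AT were 8.26 and 8.33, against 8.84 and 9.22 (-0.73, SE 0.153, limma adjusted p 0.0118). The groups did not overlap in any of the 3. Smaller differences passed for 244920_S_AT (-0.61), 244911_AT (-0.54) and 245006_AT (-0.39), with limma adjusted p of 0.0131, 0.0115 and 0.0361. All BAM8-N_Ox arrays lay below both wildtype arrays in 94 members, or 62.7%, against 41.2% of all probe sets. At an unadjusted p under 0.05 by limma, 45 members were lower and 3 higher, 32% against 22.4% of all probe sets. Those 7 calls became 2 when BAM8-N_Ox replicate 1 was left out, 3 when its replicate 2 was, and 4 when wildtype replicate 1 was, and a fit of only the 4 arrays compared gave 0.

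The other BAM8 lines gave few calls. At an unadjusted p under 0.05 by limma, 17.3% of members passed in BAM8_Ox (25 lower, 1 higher), against 8.08% of all probe sets. The shares were 25.3% against 16.3% in BAM8-DNA_Ox (37 lower, 1 higher) and 23.3% against 9.65% in BAM8-Cat_Ox (34 lower, 1 higher). In BAM8_Ox, 244939_AT alone was called lower, against 0.448% of all probe sets called. Its BAM8_Ox arrays read 6.80 and 5.91, a gap of 0.89 between replicates, and the difference from wildtype was -1.13 (SE 0.242, limma adjusted p 0.0462). This call was lost in 7 of 10 alternative settings, among them the fits without BAM8_Ox replicate 2 or either wildtype array, each with 0 called members. In BAM8-DNA_Ox, 245015_AT (10.97 and 10.79) and 245009_AT (12.14 and 12.07) were called lower, by -0.76 (SE 0.122, limma adjusted p 0.0174) and -0.59 (SE 0.103, limma adjusted p 0.0419), while 0.0528% of all probe sets were called. Wildtype read 12.75 and 12.64 for 245009_AT. The count of 2 became 0 without BAM8-DNA_Ox replicate 2 or wildtype replicate 1, and 4 without the other array of either group. In BAM8-Cat_Ox, 245008_AT (8.67 and 8.23, against 9.17 and 9.57 in wildtype) and 245006_AT (12.43 and 12.35, against 12.97 and 12.74) were called lower, by -0.92 (SE 0.189, limma adjusted p 0.0311) and -0.46 (SE 0.101, limma adjusted p 0.0448), while 0.594% of all probe sets were called. The count of 2 was 0 without BAM8-Cat_Ox replicate 2, 5 without its replicate 1, and 1 without either wildtype array. BAM8-Lig_Ox had 0 called members by limma, while 31 had an unadjusted p under 0.05 (30 lower, 1 higher), which is 20.7% against 16.9% of all probe sets. Of all probe sets 0.0308% were called, and 1 was called without BAM8-Lig_Ox replicate 2 and 2 without wildtype replicate 2.

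Of the BAM7 lines, BAM7-N_Ox and BAM7-Cat_Ox each had 1 called member. In BAM7-N_Ox, 244911_AT was lower than wildtype by -0.48 (SE 0.113, limma adjusted p 0.0247), while 2.97% of all probe sets were called. The arrays read 2.98 and 2.94, against 3.33 and 3.55 in wildtype. This probe set is dim, its wildtype arrays were the highest of the 28 apart from BAM7-Cat_Ox replicate 2, which equalled the lower of them, and it may be background. The call was lost without either BAM7-N_Ox array or wildtype replicate 2, leaving 0. BAM7_Ox, BAM7-DNA_Ox and BAM7-Lig_Ox had 0 called members by limma, while 8, 8 and 21 had an unadjusted p under 0.05. These are 5.33%, 5.33% and 14% of the members, against 13.7%, 8.97% and 6.28% of all probe sets, below the background in the first 2 and above it in BAM7-Lig_Ox. The shares of all probe sets called were 0.0264%, 0.141% and 0.0264%. For BAM7_Ox 1 member was called without wildtype replicate 2. BAM7-N_Ox called 676 probe sets across the array, and its organelle members at an unadjusted p under 0.05 numbered 8, or 5.33%, against 16.3% of all probe sets.

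Against wildtype, 42 members of BAM7-Cat_Ox had an unadjusted p under 0.05 by limma, 37 lower and 5 higher. That is 28% of the members, against 10.4% of all probe sets. BAM7-Cat_Ox was called different from wildtype in 244907_AT alone, a dim probe set. Its arrays read 3.42 and 3.62, and the other 26 arrays lay between 2.51 and 2.92. The difference from wildtype was 0.67 (SE 0.103, limma adjusted p 0.0121), while 0.0659% of all probe sets were called. Against BAM7_Ox it was 0.86 (SE 0.103, limma adjusted p 0.00157). Against BAM7_Ox, 2 members were called higher and 3 lower, while 1.6% of all probe sets were called. The others were 245035_AT (1.21 higher), 245018_AT (-1.19), 244975_AT (-0.93) and 244936_AT (-0.85), with limma adjusted p from 0.0107 to 0.0466. For 245018_AT the 2 BAM7-Cat_Ox arrays read 8.89 and 7.59 and those of BAM7_Ox 9.60 and 9.26. The count of 5 was 1 without BAM7-Cat_Ox replicate 2 or without either BAM7_Ox array, and 36 without BAM7-Cat_Ox replicate 1, and against wildtype it was 0 without BAM7-Cat_Ox replicate 2 or wildtype replicate 1, and 30 without BAM7-Cat_Ox replicate 1.

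The BAM7-Cat_Ox pools were the pair least alike at the organelle probe sets. Of the 150, 12 (8%) differed more than 2-fold between them, against 1.12% of all probe sets, and all 12 were lower in replicate 2. In other groups at most 3 members did so. The gap in 245007_AT was 3.32 on the log2 scale, from 9.41 to 6.08. Next came 245019_AT, from 9.63 to 7.78, 245002_AT, from 10.34 to 8.65, and 244981_AT, from 9.48 to 7.89. In all 12, replicate 2 lay below every one of the other 27 arrays, while replicate 1 lay within their range. Replicate 2 was the lowest of the 28 arrays in 31 members and the highest in 19, or 20.7% and 12.7%, against 10.5% and 14.8% of all probe sets. The median member did not shift with it, since the median gap between the 2 pools was 0.04. That array also had the highest 25th percentile of the 28, 8.37 units against 6.78 to 8.20, and its part in these values was not tested.

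**Figure D4:**
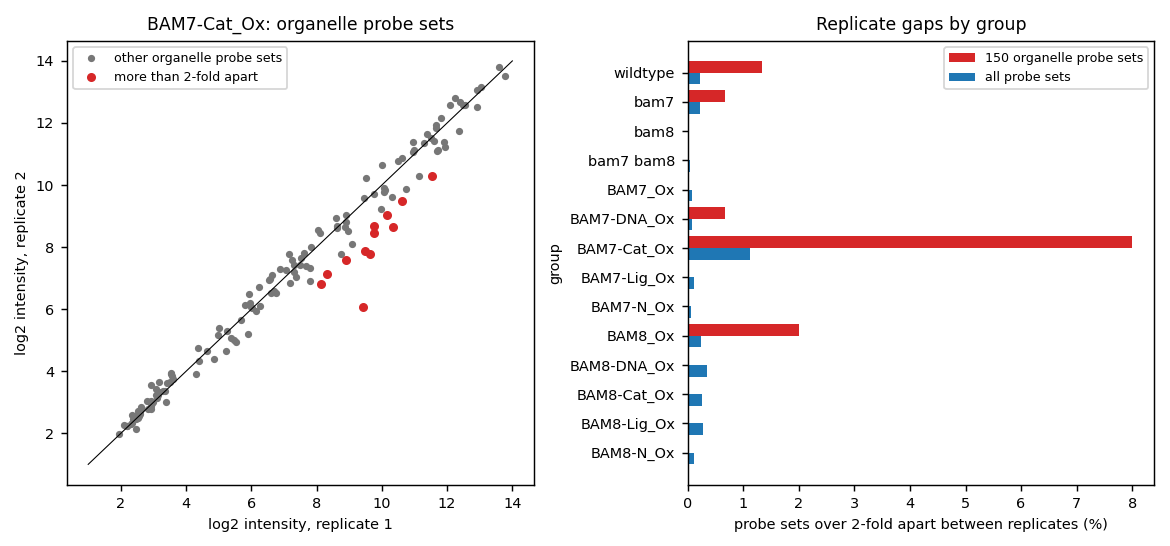
The left panel sets the log2 intensity of the 150 organelle probe sets on BAM7-Cat_Ox replicate 2 against replicate 1, with the 12 that differ more than 2-fold in red and the line of equal levels in black. The right panel gives the percentage of probe sets more than 2-fold apart between the replicates of each group, 8% in BAM7-Cat_Ox against at most 2% in the others.

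Probe set 245035_AT ran against the median of the other bright members over the 28 arrays (r -0.62). Whether it detects an organelle transcript or a nuclear gene could not be checked. It was called higher in BAM8-N_Ox than in wildtype (0.91, SE 0.219, limma adjusted p 0.0254). It was also called higher in BAM8-N_Ox than in BAM8_Ox (0.93, SE 0.219, limma adjusted p 0.0363). BAM7-Lig_Ox exceeded BAM7_Ox by 1.38 (2.61-fold, SE 0.219, limma adjusted p 0.0179). The levels were 6.40 and 6.36 in BAM8-N_Ox, 6.27 and 6.49 in BAM7-Lig_Ox, 5.92 and 6.50 in BAM7-Cat_Ox, and 5.88 and 6.20 in BAM8-Lig_Ox. In BAM7_Ox they were 5.11 and 4.88, the lowest of all groups, in BAM8_Ox 5.63 and 5.27, and in wildtype 5.79 and 5.13. The arrays of BAM7_Ox overlapped with those of no suffixed BAM7 line, BAM7-N_Ox at 5.40 and 5.18 being nearest. Each of its calls against BAM7_Ox, BAM8_Ox and wildtype was lost in 5 of 10 alternative settings, among them the fit of only the arrays compared.

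The remaining comparisons with the unsuffixed line gave no call by limma. BAM7-DNA_Ox and BAM7-N_Ox had 0 called members against BAM7_Ox, with 3 and 4 at an unadjusted p under 0.05 (2% and 2.67%, against 8.56% and 12.5% of all probe sets), while 0.444% and 3.09% of all probe sets were called. For BAM7-DNA_Ox 1 member was called without its replicate 1. BAM8-DNA_Ox, BAM8-Cat_Ox and BAM8-Lig_Ox had 0 against BAM8_Ox, with 14, 12 and 10 at an unadjusted p under 0.05 (9.33%, 8% and 6.67%, against 10.9%, 6.73% and 10.6% of all probe sets), while 0.73%, 0.106% and 0.813% were called. BAM7-Lig_Ox against BAM7_Ox and BAM8-N_Ox against BAM8_Ox had 245035_AT alone, with 0.193% and 1.68% of all probe sets called. The count for BAM7-Lig_Ox was 0 without its replicate 2 or either BAM7_Ox array and 2 without its replicate 1, and that for BAM8-N_Ox was 0 without either of its arrays or BAM8_Ox replicate 2 and 2 without BAM8_Ox replicate 1. The effect of a suffix differed between BAM8 and BAM7 in 0 members for all 4 suffixes by limma, while 8 (DNA), 32 (Cat), 13 (Lig) and 7 (N) had an unadjusted p under 0.05. Their shares were 5.33%, 21.3%, 8.67% and 4.67%, against 9.94%, 12.5%, 16% and 8.79% of all probe sets. Of all probe sets, 0.264%, 0.0044%, 0.519% and 0.55% were called.

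The BAM8 lines were then set against the BAM7 line of the same suffix, which leaves out the wildtype arrays. The suffixed pairs and the mean of the 5 pairs were added after the levels had been seen. In BAM8_Ox against BAM7_Ox, 0 members were called by limma, while 11 had an unadjusted p under 0.05 (7.33%, against 9.24% of all probe sets), and 0.374% of all probe sets were called, and 1 member was called without BAM8_Ox replicate 1. With the 5 pairs averaged, 10 arrays against 10, 8 of 150 members were called and all 8 were lower in the BAM8 lines. The background was 0.721% of all probe sets called lower, and 1.87% in either direction. At an unadjusted p under 0.05 there were 48 lower and 2 higher members, 33.3% against 15.3% of all probe sets. The 8 were 245015_AT, 244912_AT, 244974_AT, 244939_AT, 245020_AT, 245009_AT, 244989_S_AT and 245016_AT. Differences were small. They were -0.58 for 244939_AT (SE 0.108, limma adjusted p 0.00852), -0.48 for 244912_AT (SE 0.0769, limma adjusted p 0.00273), -0.46 for 244974_AT (SE 0.0844, limma adjusted p 0.00812) and -0.35 for 245015_AT (SE 0.0545, limma adjusted p 0.00229).

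The direction was the same in all 5 pairs for 7 of the 8 and in 4 of 5 for 244939_AT. These 8 were picked on the mean of the same 5 differences, so their shared direction is no separate support. For 245015_AT the pair differences were -0.18 without suffix, -0.56 for DNA, -0.33 for Cat, -0.33 for Lig and -0.34 for N. For 244974_AT they were -0.20, -0.70, -0.51, -0.19 and -0.69 in the same order. Its 10 BAM8 arrays lay between 8.37 and 8.76 with a median of 8.49, and its 10 BAM7 arrays between 8.51 and 9.30 with a median of 9.02. The bam8 arrays of 244974_AT, at 8.91 and 8.92, lay within the range of wildtype, 8.66 and 9.32, unlike those of 245015_AT. No member had all 10 BAM8 arrays below all 10 BAM7 arrays. Among the 150 members, 23 (15.3%) were lower in all 5 pairs and 2 (1.33%) in none, against 3.97% and 3.9% of all probe sets. In the 4 of the 8 with the lowest p (245015_AT, 244912_AT, 244974_AT and 244939_AT) the call held in all 26 alternative settings, and in the others it was lost in 7 to 17. The test uses the spread between pools of a line, not between transgenic lines, which the labels do not replicate. The count of 8 was 4 without BAM7-Lig_Ox replicate 1 and 5 without BAM7-N_Ox replicate 2, BAM8_Ox replicate 2, BAM8-Lig_Ox replicate 1, BAM8-N_Ox replicate 1 or either BAM8-DNA_Ox array. Without BAM7-Cat_Ox replicate 1 it was 16.

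**Figure D5:**
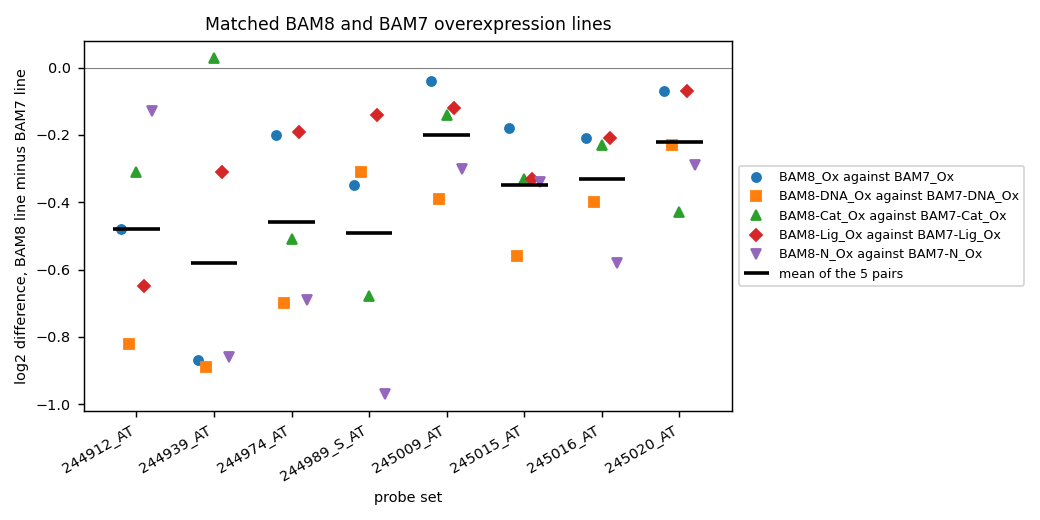
Points give the log2 difference of a BAM8 line from the BAM7 line of the same suffix for the 8 called organelle probe sets, and black bars the mean of the 5 pairs. All points lie below 0 except the Cat pair of 244939_AT, at 0.03. The 8 were picked on the mean of these same pairs, which favours a shared direction.

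The matched pairs taken singly gave calls in 3 of the 4 suffixes. In the DNA pair, 244912_AT was called lower in BAM8-DNA_Ox (6.70 and 6.23, against 7.44 and 7.14 in BAM7-DNA_Ox) by -0.82 (SE 0.172, limma adjusted p 0.0467), while 0.347% of all probe sets were called. In the Cat pair 3 members were called lower, 244907_AT (-0.69), 244997_AT (-0.77) and 245046_AT (-0.48), with 1.51% of all probe sets called. The Lig pair had 0 called members by limma, while 12 had an unadjusted p under 0.05 (8%, against 11.3% of all probe sets), and 0.215% of all probe sets were called. In the N pair 244920_S_AT (-0.62) and 245010_AT (-0.68) were called lower and 245035_AT (1.09) higher, while 0.813% of all probe sets were called. At an unadjusted p under 0.05 the N pair had 43 of 150 members (28.7%, against 7.86% of all probe sets), the Cat pair 13 higher and 19 lower (21.3%, against 16%) and the DNA pair 2 higher and 14 lower (10.7%, against 8.24%). The median member was -0.17 in the N pair, -0.07 in the DNA pair, -0.06 in the Cat pair and -0.03 in the Lig pair, against -0.01, -0.02, -0.05 and -0.04 for all probe sets. Among bright members it was -0.31, -0.10, 0.00 and 0.00, against 0.01, 0.01, 0.00 and 0.03 for all probe sets above 9.94 units. Members below 0 made up 86.7%, 72%, 58.7% and 56.7%, against 55.9%, 56.2%, 61.8% and 57.5% of all probe sets. The Cat and Lig pairs were thus not lower than the background by this measure. In the pair without suffix, BAM8_Ox against BAM7_Ox, the median member was -0.11, against 0.04 for all probe sets. Among bright members of that pair it was -0.19, against -0.03 for all probe sets above 9.94 units. Its members below 0 made up 67.3%, against 41.8% of all probe sets. The DNA call was lost without either BAM7-DNA_Ox array or BAM8-DNA_Ox replicate 2, leaving 0. The Cat count of 3 was 26 without BAM7-Cat_Ox replicate 1, 6 without BAM8-Cat_Ox replicate 1 and 1 without BAM8-Cat_Ox replicate 2. The N count of 3 was 0 without either BAM7-N_Ox array or BAM8-N_Ox replicate 1, and for Lig 1 member was called without BAM7-Lig_Ox replicate 1.

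The 5 members with the largest mean gap between replicates were 244990_S_AT, 244977_AT, 244991_S_AT, 245002_AT and 244994_AT, with mean gaps of 0.54, 0.49, 0.47, 0.47 and 0.47 on the log2 scale. None passed the F test over the 14 groups, with limma adjusted p of 0.593, 0.663, 0.355, 0.507 and 0.913. In BAM8_Ox the replicates read 6.03 and 4.89 for 244990_S_AT, 6.58 and 5.43 for 244977_AT, and 5.80 and 4.38 for 244994_AT, 2-fold or more apart. In BAM7-DNA_Ox 244990_S_AT went the other way, at 5.39 and 6.40. Over the 28 arrays 244977_AT had a Pearson r of 0.87 with 244990_S_AT, 0.82 with 244991_S_AT and 0.78 with 244994_AT, but -0.06 with 245002_AT. These correlations describe shared arrays and carry no test. The widest gaps of 245002_AT were in BAM7-Cat_Ox, in wildtype, at 10.10 and 10.96, and in BAM7_Ox, at 11.05 and 10.19.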

How the data were processed

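The authors deposited an intensity for each probe set on each array. The submitters' processing notes name RMA without a version, and the range of the values fits an antilog of its output. RMA aligns the distributions of the arrays, so a shift shared by all probe sets cannot be seen. Array medians lay between 23.47 and 25.84 units, a depth does not apply, and the number of arrays limits the precision.

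Values were put on the log2 scale, 1 control probe set of 22747 was left out, and no low values were removed. limma 3.58.1 in R 4.3.3 fitted 1 mean per group to 28 arrays (14 residual degrees of freedom, 17.7 in the moderated test). Tests were two-sided, adjusted by Benjamini-Hochberg over 22746 probe sets within each of 22 comparisons and the F test, and called under 0.05. Comparisons of matched BAM8 and BAM7 lines and the interactions were added later. Figures used matplotlib 3.10.9.

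Members and lists were chosen with earlier results of these data known. Named were the 10 members with the lowest F test p, up to 4 called per comparison and direction, and the 5 with the largest mean replicate gap. Members named for a wide range, a BAM7-Cat_Ox gap or a bam8 value, 244920_S_AT and 244996_AT at the threshold, 245045_AT for its r, and those of the added comparison were chosen after their values were seen. Functional classes, nuclear gene lists and markers could not be applied without gene names. On simulated data with 200 changed probe sets, the fit recovered 37.3%, 95.5% and 100% of changes of 0.5, 1 and 2 for BAM8-N_Ox against wildtype. The F test recovered 5.97%, 74.6% and 100%. Changed probe sets were drawn from all 22746 with independent noise. The change was put into BAM8-N_Ox alone, so F test recovery of changes spread over several groups was not tested. The organelle members had a larger median standard error, so recovery among them was not tested. P-values rest on the spread between the 2 pools of plants of a group, pooled over all 14 groups and moderated across probe sets.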

Additional observations from a re-analysis of the deposited data

How the results depend on the processing

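None of the 36 calls reversed in 9 to 26 alternative settings each, and of their 483 alternative values 307 kept the call and 176 lost it. The matched pairs, their mean and all alternatives for them were chosen after seeing the data. No alternative was run for the interactions. Few arrays per group and, for dim probe sets, background limit these results, and the causes of the changes below were not tested.

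The F test count of 11 was 20 with each array's 25th percentile as a covariate, 23 with a variance trend and robust estimation, and 7 to 34 with 1 array left out. With only the groups compared, 0 members were called for BAM7-Cat_Ox, BAM7-N_Ox, BAM8_Ox, BAM8-Cat_Ox, BAM8-DNA_Ox and BAM8-N_Ox against wildtype and for BAM7-Cat_Ox and BAM7-Lig_Ox against BAM7_Ox and BAM8-N_Ox against BAM8_Ox, 1 for BAM7-N_Ox against BAM7_Ox, 5 for the mean of the BAM8 lines, and 0 for the DNA, Cat and N pairs. With dim probe sets left out the counts were 0 for BAM7-Cat_Ox and BAM7-N_Ox, 1 for BAM8-Cat_Ox and 4 for BAM8-DNA_Ox against wildtype, 1 for BAM7-N_Ox against BAM7_Ox, and 2 for the DNA pair. The trend gave 3 for the DNA pair, 10 for BAM7-Cat_Ox against BAM7_Ox, 1 for BAM8-DNA_Ox against BAM8_Ox, and 4 for BAM8-Cat_Ox, 4 for BAM8-DNA_Ox, 1 for BAM8-Lig_Ox and 11 for BAM8-N_Ox against wildtype. Cyclic loess gave 0 for BAM8_Ox, 4 for BAM8-DNA_Ox and 1 for BAM8-Lig_Ox against wildtype and 0 for BAM8-N_Ox against BAM8_Ox. The covariate gave 1 for BAM7-Cat_Ox and 0 for BAM7-Lig_Ox against BAM7_Ox, 2 for BAM8_Ox, 4 for BAM8-Cat_Ox and 0 for BAM8-DNA_Ox against wildtype, 14 for the mean of the BAM8 lines, and 11 for the N pair.

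Replicate numbers were not treated as pairs in the main fit. Over 91 pairs of groups the correlation of same-numbered deviations ran from -0.38 to 0.43 with a median of 0.01, and 24 were over 0.1. Whether some same-numbered arrays belong together was not tested. The replicate block gave 0 for BAM8_Ox and 1 each for BAM8-Cat_Ox and BAM8-DNA_Ox against wildtype, and 10 for the F test.

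With 1 array left out, counts against wildtype ran from 0 to 1 for bam7, BAM7_Ox, BAM7-N_Ox and BAM8_Ox, 0 to 30 for BAM7-Cat_Ox, 0 to 5 for BAM8-Cat_Ox, 0 to 4 for BAM8-DNA_Ox, 0 to 2 for BAM8-Lig_Ox and 2 to 6 for BAM8-N_Ox. Against BAM7_Ox they ran from 1 to 36 for BAM7-Cat_Ox, 0 to 1 for BAM7-DNA_Ox and BAM8_Ox and 0 to 2 for BAM7-Lig_Ox, against BAM8_Ox from 0 to 2 for BAM8-N_Ox, for the mean of the BAM8 lines from 4 to 16, and from 0 to 1 for the DNA and Lig pairs, 1 to 26 for Cat and 0 to 2 for N. A lone array was assumed to vary like the other groups.

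The median member against wildtype changed sign in bam7 and BAM7-N_Ox. With dim probe sets left out it was 0.06 in bam7, -0.17 in bam7 bam8, -0.24 in BAM7-Cat_Ox, -0.18 in BAM7-Lig_Ox, 0.05 in BAM7-N_Ox, -0.23 in bam8, -0.19 in BAM8_Ox, -0.27 in BAM8-Cat_Ox and -0.29 in BAM8-N_Ox. Cyclic loess gave -0.01 in BAM7_Ox, 0.03 in BAM7-N_Ox, -0.09 in BAM8-DNA_Ox and -0.11 in BAM8-Lig_Ox. With 1 array left out it ran from -0.02 to 0.05 in bam7, -0.17 to -0.11 in bam8, -0.07 to -0.01 in BAM7_Ox, -0.14 to -0.04 in BAM7-Cat_Ox, -0.14 to -0.06 in BAM7-Lig_Ox, -0.06 to 0.03 in BAM7-N_Ox, -0.17 to -0.08 in BAM8_Ox, -0.23 to -0.14 in BAM8-Cat_Ox, -0.19 to -0.10 in BAM8-Lig_Ox and -0.25 to -0.17 in BAM8-N_Ox.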
